A study of Mus musculus with 4 samples.

Results

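Transcripts of 10 Polycomb complex genes (Ezh1, Ezh2, Eed, Suz12, Ring1, Rnf2, Bmi1, Pcgf6, L3mbtl2 and Cbx7) were compared between R/R and wild-type (WT) mouse cell lines transformed by p185 BCR-ABL1. The genes were chosen by name as subunits of the repressive complexes PRC2 and PRC1. The rule itself uses no measured value, but earlier results of these data were known when the members and gene lists were chosen. They were found through the RefSeq accessions printed for each spot, which matched all 10 among 20972 genes with a symbol. These genes had 13 of the 55681 probes on the array, 27656 of which carried a symbol. All 13 probes were kept apart: Ezh1 had 3, Bmi1 had 2 and each other gene had 1.

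The R/R lines are homozygous for knock-in substitutions in the cyclin D-dependent kinases, R24C in Cdk4 and R31C in Cdk6, which are known to block binding by INK4 inhibitors. WT lines have neither substitution, and every line, R/R or WT, arose as an immortal transformed clone from fetal liver given a p185 BCR-ABL1 transgene. The strain background of all samples was mixed C57BL/6J x CD-1. RNA of asynchronous cultures was read on 4 Agilent arrays with 2 colours each: R/R clones 1, 2 and 3 in Cy5, 1 per array, and an R/R pool in Cy3 on the remaining array. The other channel of every array held a WT pool, so the control has no spread of its own; the labels do not say what the R/R or WT pool contained. The identifiers of clones 1 and 2 share their first part, and p-values rest on the spread among these 3 clones, which limma moderates with the spread over all tested probes. If the R/R pool mixes these clones, it is not an independent sample, neither where arrays are counted nor in the fitted ratios. Every ratio below is the log2 ratio of R/R over the WT pool on the same array, with the sign of the R/R pool array turned. In bulk RNA such a ratio cannot separate fewer cells of a type from less RNA per cell.

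Polycomb group proteins keep genes silent through chromatin. PRC2 methylates histone H3 on lysine 27: EZH2 or its paralog EZH1 is the methyltransferase, EED binds the mark already laid down, and SUZ12 is the scaffold. PRC1 ubiquitinates histone H2A through RING1 or RNF2 (RING1B), paired with a PCGF protein such as BMI1 (PCGF4) or PCGF6. CBX proteins tether canonical PRC1 to the PRC2 mark, whereas PCGF6 and L3MBTL2 belong to a variant PRC1 that also holds MGA, MAX and E2F6. In lymphoid and haematopoietic cells EZH2 is known to be an E2F target, BMI1 is known to repress the Cdkn2a locus, and EZH2 is needed for early B cell development.

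Promoter sequence is shown for Ezh2, Suz12 and Bmi1, the member genes in which an E2F or E-box motif was found. All 10 members matched a RefSeq promoter entry (GRCm38.p6), each covering 250 bases before the start of the gene and 50 after it. Both strands were searched for 4 forms of the E2F site (TTTCCCGC, TTTCGCGC, TTTGCCGC and TTTGGCGC) and for the E-box CACGTG, which overlaps none of them. An E2F form stood in 2 of the 10 member promoters and in 2.26% of all 32851 promoters, and the E-box stood in 1 member promoter and in 7.15% of all. Capitals mark the matches in the following 250-base stretches upstream of the start, and in a 30-base stretch from the start of Ezh2. A match is a run of letters and does not show that a factor binds there.
Suz12, chr11:79992856-79993105, plus strand: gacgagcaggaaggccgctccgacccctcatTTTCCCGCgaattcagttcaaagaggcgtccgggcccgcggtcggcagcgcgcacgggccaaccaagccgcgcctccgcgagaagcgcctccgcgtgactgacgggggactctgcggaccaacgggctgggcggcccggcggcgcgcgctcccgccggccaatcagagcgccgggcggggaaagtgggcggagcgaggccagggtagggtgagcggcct
Bmi1, chr2:18676768-18677017, plus strand: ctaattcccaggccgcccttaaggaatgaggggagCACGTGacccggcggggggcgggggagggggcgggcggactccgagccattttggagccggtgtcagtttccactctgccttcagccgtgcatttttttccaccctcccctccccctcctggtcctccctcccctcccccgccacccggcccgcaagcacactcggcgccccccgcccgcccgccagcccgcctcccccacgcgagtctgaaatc
Ezh2, chr6:47595031-47595280, minus strand: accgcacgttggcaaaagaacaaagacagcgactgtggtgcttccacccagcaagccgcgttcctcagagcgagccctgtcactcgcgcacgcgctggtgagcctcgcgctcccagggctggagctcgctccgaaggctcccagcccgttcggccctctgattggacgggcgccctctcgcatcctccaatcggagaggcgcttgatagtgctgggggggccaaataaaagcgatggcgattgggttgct
Ezh2, first bases after the start, chr6:47595001-47595030, minus strand: gcgTTTGGCGCtcggtccggtcgcgtccga
The Suz12 match began 219 bases before the start and the Bmi1 match 215 bases before it, while the Ezh2 match lay at bases 4 to 11 after the start. CpG dinucleotides numbered 12 to 37 in the upstream 250 bases of the member genes, against a median of 6 over all promoters.

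No member passed the test between R/R and WT lines, and the fitted differences were small. Testing required that 1 genotype's channel, R/R or WT, lay well above background on 3 or more of the 4 arrays, which 26450 probes and 11 of the 13 member probes met. These 11 probes covered 9 of the 10 genes. limma called 0 member probes at an adjusted p under 0.05, against 155 of all tested probes (0.586%), 49 of them higher in R/R (0.185%) and 106 lower (0.401%). At an unadjusted p under 0.05, 1 member probe passed, against 14.9% of all tested probes. Normalisation moved the split of the calls over all probes: 8 were higher and 49 lower with the scanner software's own ratios, and 3 were higher and 29 lower with median centring, again with 0 members in either.

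Fitted member ratios lay between -0.26 and 0.32, with 4 probes above 0, 7 below and a median of -0.10, beside a median of -0.01 over all tested probes. The smallest ratio that was called anywhere on the array had a size of 0.66, larger than that of any member. The fit weighs the average clone and the R/R pool equally and adds a dye term, which cannot be told apart from a difference between pool and clones. It has 2 residual degrees of freedom, so the number of arrays limits the precision.

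**Figure D1:**
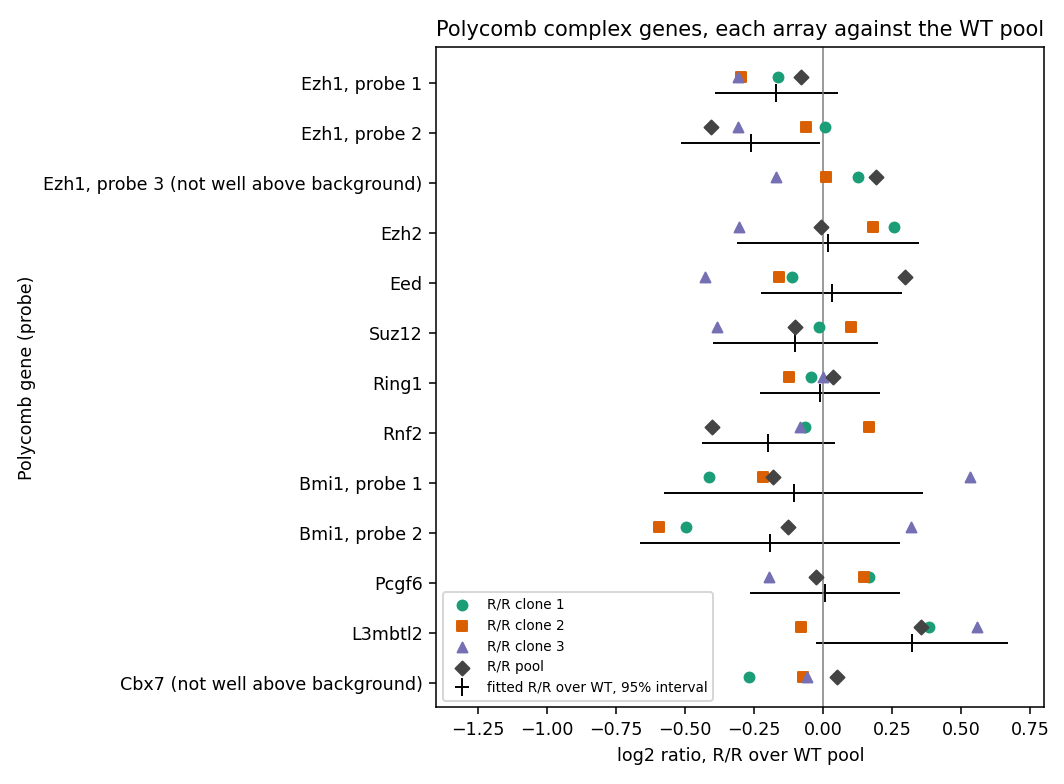
Log2 ratio of R/R over the WT pool on the horizontal axis for the 13 Polycomb probes, with 1 point per array; the black tick and line give the limma estimate and its 95% interval for the 11 tested probes. The interval includes 0 for every tested probe but Ezh1 probe 2, and clone 3 stands apart for Bmi1, Ezh2 and Suz12.

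Among the PRC2 core genes, the catalytic subunit Ezh2 had a higher level than the WT pool in clones 1 and 2 and a lower level in clone 3. Its ratios were 0.26, 0.18 and -0.30 in clones 1, 2 and 3, and -0.01 in the R/R pool. In processed intensity, which the scanner software corrects for background and dye, the R/R channel read 5399.6, 5266, 4188 and 4809.9 on the arrays of clones 1, 2, 3 and the pool, against 4559, 4538, 4987 and 5049.6 in the WT channel. The R/R and WT readings overlapped, with both the highest and the lowest of the 8 in R/R channels. The fit gave 0.02 ± 0.13 (SE; 95% interval -0.31 to 0.35; limma adjusted p = 0.963), an interval that runs from 1.24-fold lower to 1.27-fold higher in R/R.

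Ezh1, the second PRC2 methyltransferase and the form that predominates in resting cells, was the only member with a probe below 0 on all 4 arrays, which held for probe 1. Its probe 1 read -0.16, -0.30 and -0.31 in clones 1, 2 and 3 and -0.08 in the R/R pool. A shared sign on all 4 arrays was found in 1 of the 11 member probes and in 30.1% of all tested probes. The fitted ratio was -0.17 ± 0.09 (95% interval -0.39 to 0.05; limma adjusted p = 0.440).

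Ezh1 probe 2 read 0.01, -0.06 and -0.31 in the clones and -0.40 in the R/R pool, so clones 1 and 2 lay near the WT pool. It was the member probe with the smallest p, with a fitted ratio of -0.26 ± 0.10 (95% interval -0.51 to -0.01; limma adjusted p = 0.317). With the clones alone its ratio was -0.12 (limma adjusted p = 0.569). The estimates of both probes were below 0, but which clones were low differed between them. Probe 3 of Ezh1 was not well above background in any channel, read 0.13, 0.01 and -0.17 in the clones and 0.19 in the R/R pool, and was not tested.

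Eed, which reads the trimethyl mark and stimulates the enzyme, was below the WT pool in the 3 clones and above it in the R/R pool. The ratios were -0.11, -0.16 and -0.43 in clones 1, 2 and 3 and 0.29 in the pool. Processed intensity was 3962, 4009 and 3712 in the R/R clones and 4525 in the R/R pool, against 4219, 4437, 5054 and 3757 in the WT channel of the same arrays. The Cy3 channel was the brighter on every array, whichever genotype it carried. The fitted ratio was 0.03 ± 0.10 (95% interval -0.22 to 0.29; limma adjusted p = 0.910) with a dye term of -0.26, and with the clones alone it was -0.23.

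Suz12, the scaffold without which PRC2 falls apart, read -0.02, 0.10 and -0.38 in clones 1, 2 and 3 and -0.10 in the R/R pool. Clone 3 was again the low one, and the other arrays lay within 0.10 of the WT pool after rounding. The fitted ratio was -0.10 ± 0.12 (95% interval -0.40 to 0.20; limma adjusted p = 0.730). Taking the brightest probe of each of the 4 PRC2 core genes, the median ratio was -0.06, -0.03 and -0.35 in clones 1, 2 and 3 and -0.05 in the R/R pool.

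**Figure D2:**
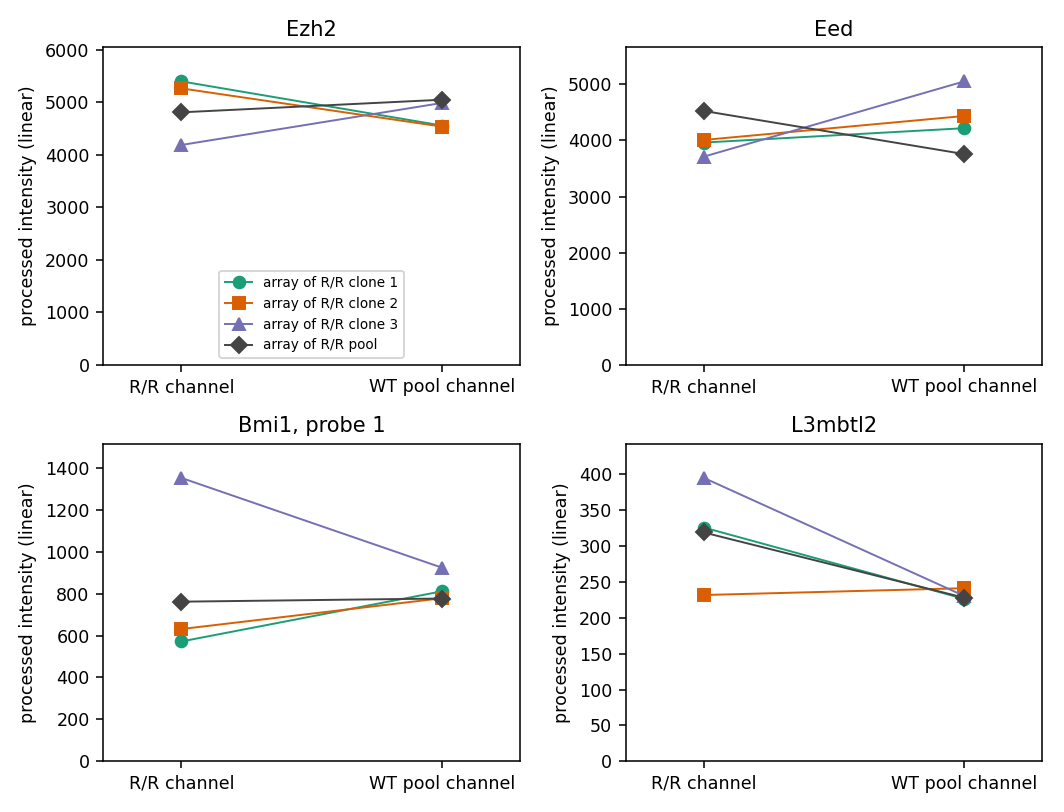
Processed intensity (linear scale, from 0) of Ezh2, Eed, Bmi1 probe 1 and L3mbtl2 in the R/R channel, left, and the WT pool channel, right, with 1 line per array. Lines cross for Ezh2 and Eed, the R/R channel of clone 3 is the brightest for Bmi1 at 1353, and the WT channel of L3mbtl2 stays between 226 and 241.

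Of the PRC1 catalytic subunits, Ring1 had the smallest SD over the clones of all member probes, but it was also the dimmest tested member. Its ratios were -0.04, -0.12 and -0.0022 in clones 1, 2 and 3 and 0.04 in the R/R pool. The fitted ratio was -0.01 ± 0.09 (95% interval -0.23 to 0.21; limma adjusted p = 0.966). Processed intensity of Ring1 was 77.2 to 90.1 in the R/R channels and 84.4 to 104.6 in the WT channels. With the scanner software's ratios its SE was 0.14, against 0.13 for Ezh1 probe 1, so its rank depends on the processing. Rnf2, the main H2A ubiquitin ligase of PRC1, read -0.07, 0.17 and -0.09 in the clones and -0.40 in the R/R pool. The clones lay on both sides of the WT pool and only the pool array was clearly lower, so that the fitted ratio of -0.20 ± 0.10 (95% interval -0.44 to 0.04; limma adjusted p = 0.411) became 0.0053 with the clones alone.

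Bmi1, the PCGF subunit of canonical PRC1 that sustains self-renewal of haematopoietic cells, differed most between clones. Probe 1 read -0.41 and -0.22 in clones 1 and 2, 0.53 in clone 3 and -0.18 in the R/R pool, and probe 2 read -0.50, -0.60, 0.32 and -0.13 in the same order. On both probes clone 3 alone was above the WT pool. In processed intensity, probe 1 read 572, 631 and 1353 in clones 1, 2 and 3 and 762 in the R/R pool, against 811, 778, 925 and 777 in the WT channel of those arrays.

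With the clones on both sides of the WT pool, the fitted Bmi1 ratios were -0.11 ± 0.19 (95% interval -0.57 to 0.36; limma adjusted p = 0.819) for probe 1 and -0.19 ± 0.19 (95% interval -0.66 to 0.28; adjusted p = 0.669) for probe 2. Without clone 3 they were -0.25 and -0.34, still not called. The SD over the 3 clones was 0.50 for each probe, and 4.85% of all tested probes had an SD at least as large as that of probe 2. Clone 3 exceeded the mean of clones 1 and 2 by 0.85 on probe 1 and by 0.87 on probe 2, that is 1.80-fold and 1.82-fold. With 1 array per clone these differences between clones have no test.

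Cbx7, a chromodomain subunit that binds the PRC2 mark and represses Cdkn2a, was not well above background in any channel. Processed intensity was 4.55, 3.61 and 5.42 in clones 1, 2 and 3 and 5.49 in the R/R pool, against 8.16, 3.96, 4.28 and 4.58 in the WT channel. The lowest signal called well above background was 14.7 to 26.8 in the R/R channels and 16.7 to 19.3 in the WT channels. No fold is given for Cbx7, since neither genotype had a measured level.

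In the variant PRC1 with PCGF6, which silences germ cell genes in mouse embryonic stem cells, Pcgf6 read 0.16, 0.15 and -0.20 in clones 1, 2 and 3 and -0.02 in the R/R pool. Clones 1 and 2 were slightly above the WT pool and clone 3 below it. The fitted ratio was 0.01 ± 0.11 (95% interval -0.26 to 0.28; limma adjusted p = 0.983), and its sign turned when clone 1 or clone 2 was left out.

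L3mbtl2, the MBT-domain protein of the same complex, had the highest fitted ratio of the members. Its processed intensity was 326, 232 and 395 in clones 1, 2 and 3 and 319 in the R/R pool, against 226, 241, 230 and 228 in the WT channel. The ratios were 0.38, -0.08, 0.56 and 0.36 in the same order, so clone 2 alone was not above the WT pool. The fit gave 0.32 ± 0.14 (95% interval -0.03 to 0.67; limma adjusted p = 0.364), which is 1.25-fold, and it was called under no alternative, where its adjusted p ran from 0.130 to 0.701.

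Clone 3 lay at an end of the 3 clones in every tested member probe. It was the lowest of the 3 clones in 7 of the 11 tested member probes and the highest in 4, while over all tested probes it was the lowest in 39.2% and the highest in 34.2%. Being at an end of 3 values does not set a clone apart: for L3mbtl2, Ring1 and Rnf2 clone 2 lay farther from the other clones, and for Ezh1 probe 1 clone 1 did. Against the mean of clones 1 and 2, clone 3 was lower by 0.52 for Ezh2 (1.44-fold), by 0.42 for Suz12, by 0.35 for Pcgf6 and by 0.29 for Eed, as differences of log2 ratios. It was higher by 0.41 for L3mbtl2, where clone 1 lay close to clone 3. The median SD over clones was 0.20 for the member probes and 0.17 for all tested probes. The R/R pool lay within the range of the clones for 6 of the 11, a count whose share over all tested probes was not taken.

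**Figure D3:**
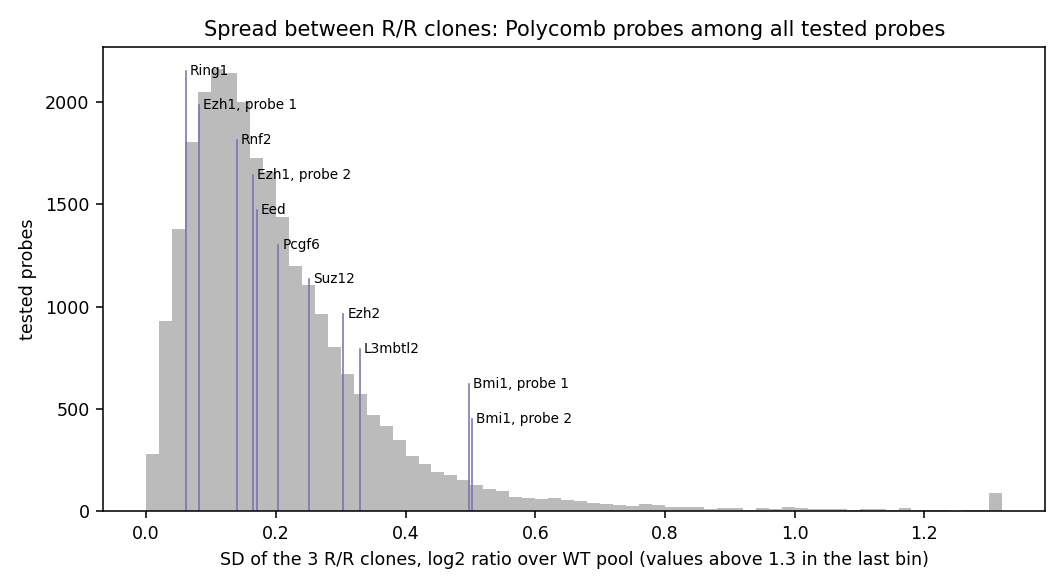
Histogram of the SD of the log2 ratio over the 3 R/R clones (horizontal axis) for all 26450 tested probes, with vertical lines at the 11 Polycomb probes. Both Bmi1 probes lie at 0.50, and Ring1, the dimmest tested member, has the smallest value of the members at 0.06.

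Probes of the other Polycomb subunits gave 1 call. Of 63 genes in 7 lists (PRC2 accessory subunits, canonical and variant PRC1, PCGF6 partners, the H2A deubiquitinase PR-DUB, recruiters and MBT proteins, and H3K27 demethylases), 54 had a tested probe. Their 75 tested probes had a median ratio of 0.02 and a range of -0.43 to 1.01. limma called 1 higher and 0 lower, beside 0.586% of all tested probes called in either direction. An unadjusted limma p under 0.05 was found for 9, beside 14.9% of all tested probes. The same shares stand beside the counts of each list below.

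The called gene was E2f6, a DNA-binding subunit of the PCGF6 and L3MBTL2 complex and a repressor of the E2F family. It read 1.08, 0.66, 1.11 and 1.06 in clones 1, 2, 3 and the R/R pool, with a fitted ratio of 1.01 ± 0.12 (limma adjusted p = 0.044). All 4 arrays were well above the WT pool, but E2f6 did not pass when clone 1 was left out (limma adjusted p = 0.104), under median centring (0.104), after the array was reduced to 1 mean per gene (0.052, with the ratio of its single probe unchanged) or on the ratios of the scanner software (0.168). Across its 15 alternatives the ratio ran from 0.95 to 1.20 and the adjusted p from 0.0029 to 0.168. E2f6 was 1 of 10 PCGF6 partner genes, 9 of which had ratios above 0 on their brightest probe. The median over the probes of the 10 genes was 0.14, beside -0.01 over all tested probes. None of the other partners passed: Cbx1, a heterochromatin protein, had the next smallest p with 0.24 ± 0.09 (limma adjusted p = 0.295). With the clones alone Cbx1 had 0.06, while the R/R pool read 0.41.

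In canonical PRC1, 8 of 10 tested genes had ratios below 0 on their brightest probe. The median over probes was -0.12, beside -0.01 over all tested probes. Probes of a gene could differ in sign: those of Cbx6 had 0.01, -0.15 and 0.19, and those of Pcgf2 -0.08 and 0.06. limma called 0 of 13 probes, and 1 had an unadjusted p under 0.05. The chromodomain genes Cbx2 and Cbx8 had the smallest p, at -0.28 ± 0.09 (adjusted p = 0.265) and -0.22 ± 0.09 (adjusted p = 0.336). With the clones alone Cbx2 had -0.15 and Cbx8 had -0.06. Cbx8 read -0.07, -0.14 and 0.03 in clones 1, 2 and 3 and -0.39 in the R/R pool. Cbx2 was below the WT pool on all 4 arrays, at -0.03, -0.24, -0.19 and -0.40 in clones 1, 2, 3 and the R/R pool.

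Pcgf1, the PCGF subunit of the variant PRC1 with KDM2B and BCOR, was the Polycomb gene furthest below 0. It read -0.34, -0.42, -0.27 and -0.52 in clones 1, 2, 3 and the R/R pool. Its fitted ratio was -0.43 ± 0.09 (limma adjusted p = 0.133), and it passed only when the dye term was dropped (adjusted p = 0.035). Fbrs, of the PCGF3 and PCGF5 complexes, had -0.23 ± 0.09 (adjusted p = 0.317). Over the variant PRC1 list, 0 of 20 tested probes were called by limma, 3 had an unadjusted p under 0.05 and the median was 0.05.

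None of the 11 tested PRC2 accessory probes was called by limma, with 2 at an unadjusted p under 0.05, both of Rbbp7, a histone chaperone shared with other complexes. Rbbp7 read 0.38 ± 0.13 on its brightest probe (limma adjusted p = 0.276) and 0.30 on the other. With the clones alone the brightest probe of Rbbp7 had 0.15. Jarid2, which helps to recruit PRC2, had -0.26 ± 0.12 (adjusted p = 0.392), and clone 1 was the lowest at -0.52.

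Of the enzymes that undo the marks, the H3K27 demethylase Kdm6a (UTX) was below the WT pool on all 4 arrays, at -0.15, -0.21, -0.23 and -0.37 in clones 1, 2, 3 and the R/R pool. Its fitted ratio of -0.28 ± 0.09 did not pass (limma adjusted p = 0.232), and Kdm6b had -0.07 ± 0.10 (adjusted p = 0.777). PR-DUB genes had 0 of 11 tested probes called by limma and 0 at an unadjusted p under 0.05, with -0.23 ± 0.10 for Ogt (adjusted p = 0.347) and -0.19 ± 0.09 for Mbd6 (adjusted p = 0.373). With the clones alone Ogt had -0.09 and Mbd6 had -0.38. Of the recruiters and MBT proteins, the DNA-binding Yy1 had -0.09 ± 0.12 (adjusted p = 0.766) and L3mbtl3 had -0.01 ± 0.10 (adjusted p = 0.957); limma called 0 of their 4 tested probes, and 0 had an unadjusted p under 0.05.

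**Figure D4:**
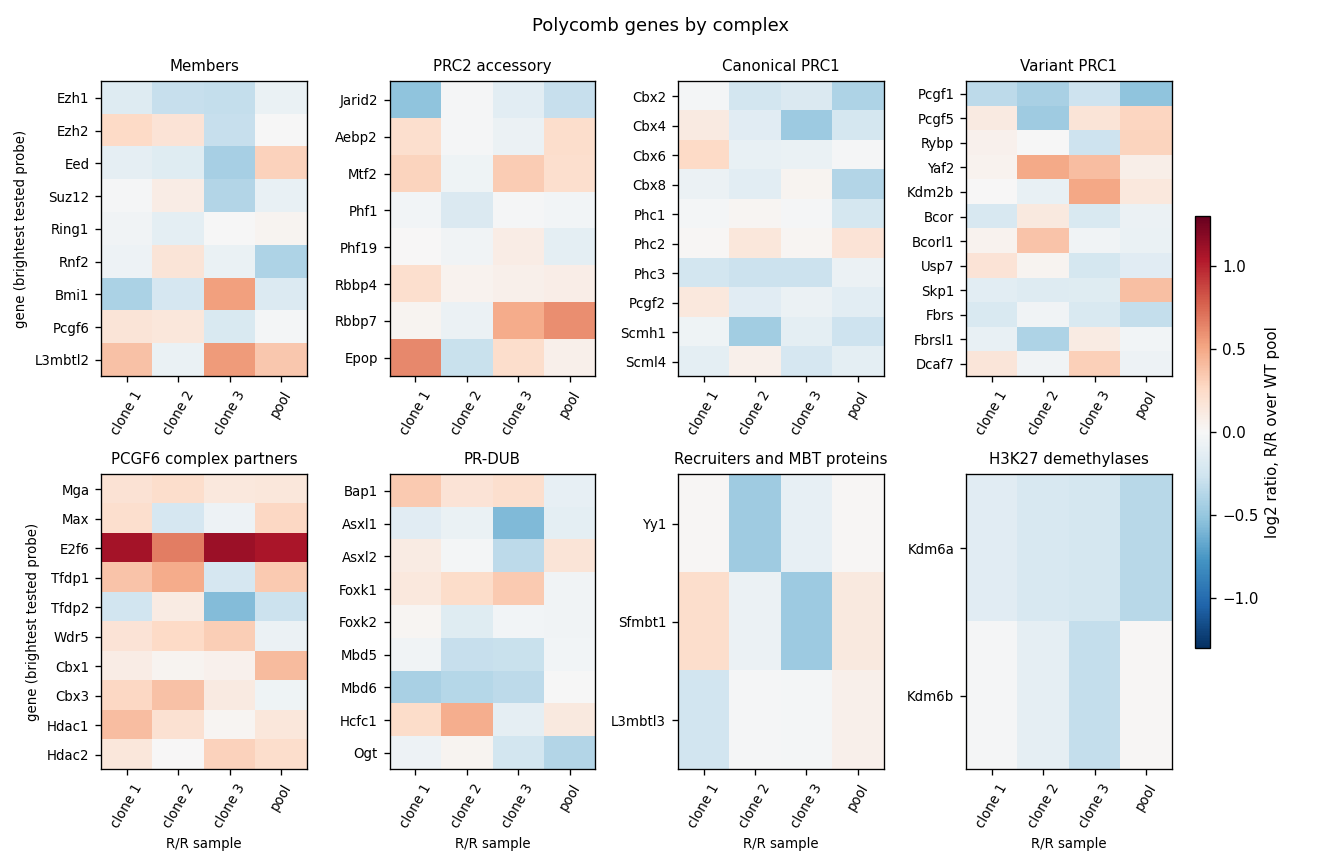
Log2 ratio of R/R over the WT pool, by colour, for the brightest tested probe of each Polycomb gene (rows) on each array (columns), grouped by complex, with the member genes in the first panel. E2f6 is the darkest red row, at 0.66 to 1.11, and Pcgf1 is blue on all 4 arrays.

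Among genes known to be silenced by Polycomb complexes, Cdkn2a, which encodes p16INK4a and ARF, was above the WT pool on all 4 arrays. Mean log2 intensity was 13.09 on the brighter of its probes and 9.39 on the dimmer. Both were well above background in the R/R and WT channels of all 4 arrays, so Cdkn2a was expressed in the WT pool as well. Its brighter probe read 1.69 and 1.22 in clones 1 and 2, 0.54 in clone 3 and 1.62 in the R/R pool, and its dimmer probe read 1.67, 1.45, 0.42 and 1.14. The fitted ratios were 1.39 ± 0.21 (limma adjusted p = 0.078) and 1.16 ± 0.24 (adjusted p = 0.133). The brighter probe was called without clone 3 (limma adjusted p = 0.013), with an intensity trend (0.049) and with no dye term (0.011), and not under its other 12 alternatives. Clone 3, the clone with the highest Bmi1 ratio, had the lowest Cdkn2a ratio on both probes. The order of the other arrays differed between the probes of each gene, and 4 arrays do not allow a relation to be tested.

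**Figure D5:**
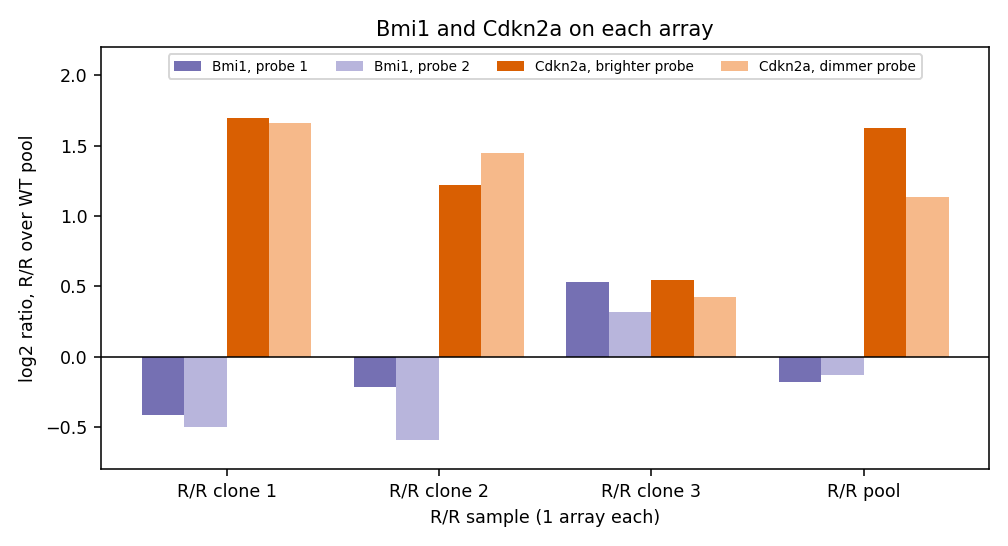
Log2 ratio of R/R over the WT pool (vertical axis) of both probes of Bmi1 and of Cdkn2a on each of the 4 arrays, as bars from 0. Clone 3 has Bmi1 at 0.53 and 0.32 and Cdkn2a at 0.54 and 0.42, while the other arrays have Bmi1 below 0 and Cdkn2a above 1.1.

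Cdkn2b, the neighbouring INK4 gene, had -0.15 ± 0.18 (limma adjusted p = 0.718) on its brightest probe and 0.07 on the other, with clone 3 again the lowest at -0.63 and -0.29. Of the 5 HOXA genes listed, Hoxa7 alone was tested, at 0.01 ± 0.09 (limma adjusted p = 0.967). Of 8 developmental regulators held silent by PRC2 in stem cells, 5 had no channel well above background on any array. The 2 tested, Gata6 and Nkx2-2, each had a fitted ratio of -0.01 ± 0.09 (limma adjusted p = 0.962 and 0.964). Gata6 was well above background on 4 arrays in the WT channel but on 1 in the R/R channel, and Nkx2-2 on 4 and 3. Both lay near background, with a mean log2 intensity of 6.33 and 6.41, so these ratios do not show equal levels. With the scanner software's ratios they were -0.54 and -0.21. Of 10 germ cell genes known as targets of the PCGF6 complex in mouse embryonic stem cells, 8 had no channel well above background. Taf7l read -0.12 ± 0.17 (limma adjusted p = 0.777), with clone 3 at -0.69 and clones 1 and 2 at 0.05 and 0.07, and Hsf2bp had -0.05 ± 0.09 (adjusted p = 0.835).

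The genes whose 4 ratios lay nearest to those of Ezh1 probe 2, by Euclidean distance over the 4 arrays, were Map3k5 at 0.0726, Tmem161a at 0.0769 and Ranbp10 at 0.109. Their fitted ratios were -0.24, -0.27 and -0.21. These distances describe 4 arrays that share 1 WT pool.

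Proliferation genes, with which Ezh2 is known to vary, had a median ratio over their 7 genes of 0.19, 0.20 and 0.11 in clones 1, 2 and 3 and 0.17 in the R/R pool. On the brightest probe, 4 of these genes had fitted ratios above 0 and 3 below: Mki67 (-0.06), Top2a (-0.08) and Mcm5 (-0.14). Of the 12 probes of all 7 genes 1 was called by limma, the dimmest of 3 probes of Ccnb1 (cyclin B1), at 0.72 ± 0.09 (adjusted p = 0.046). An unadjusted limma p under 0.05 was found for 6, beside 14.9% of all tested probes. These 6 were the 3 probes of Ccnb1 and 1 probe each of Cdk1, Mcm2 and Pcna, so they are not 6 separate genes. The Ccnb1 probes other than the called one had 0.76 ± 0.13 (limma adjusted p = 0.088) and 0.72 ± 0.11 (adjusted p = 0.078). The called probe passed under 5 of its 13 alternatives, and among the 8 where it did not was the fit without clone 1 (limma adjusted p = 0.145). Cdk1, the mitotic kinase, had 0.49 ± 0.09 (adjusted p = 0.105). The part of proliferation in the Ezh2 ratios was not tested.

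The labels name no lineage. Of the B precursor genes 8 of 8 were tested and 0 called, while mast cell (0 of 3), erythroid (0 of 5) and hepatocyte (0 of 4) genes had no channel well above background. Of the myeloid genes 4 of 5 were tested, and of the T cell genes 2 of 4, with 0 called by limma; at an unadjusted p under 0.05 the B precursor, myeloid and T lists had 0. The B precursor genes had a median ratio of 0.06, -0.28 and 0.14 in clones 1, 2 and 3 and -0.07 in the R/R pool, and the part of these differences in the member ratios was not tested. Between 42.1% and 53.0% of probes lay well above background in the R/R channels, against 47.6% to 49.8% in the WT channels, and ratios of arrays correlated over tested probes at r of 0.22 (clones 2 and 3) to 0.55 (clone 1 and the pool).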

How the data were processed

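Intensity values, per the file headers, are medians over the pixels of each spot and of its surround, read with Feature Extraction 11.5.1.1 (11.5 per the submitters' processing notes), and processed intensities are corrected for background and dye. The scanner software's log10 ratios set Cy5 over Cy3 after that correction, per the file headers. The authors' deposited table holds log2 ratios whose making is not stated; they correlated by position with the ratios computed here at r of 0.989 to 0.997, their column medians were -0.0014 to 0.0040, their row numbers match no probe, and they gave counts alone. With limma 3.58.1 in R 4.3.3, normexp correction (offset 50) and loess within arrays were applied to the median signals, control spots had no weight, and spots of a probe were averaged after 210 to 265 flagged spots per array were left out. Each probe was fitted with genotype and dye terms, two-sided, with Benjamini-Hochberg adjustment over 26450 probes; intervals are at 95%. The fit was run on simulated, mutually independent arrays, which cannot show how it behaves with a shared WT pool, related clones or a pool that mixes clones. All arrays were on 1 slide. Symbols come from RefSeq accessions.

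The members and lists were chosen with earlier results of these data known. Named are all member probes, each list's called genes and the 2 genes with the smallest p on their brightest tested probe, and the 3 genes nearest to the member probe with the smallest p. Alternatives were the ratios of the scanner software or the deposited table, median centring, offset 16, between-array scaling, no filter or a strict filter (both channels on 4 arrays), 1 probe or the mean of probes per gene, an intensity trend, a threshold of 0.10, a fit with no dye term or of the clones alone, averaging of clones 1 and 2, and omission of each clone. For the other Polycomb lists and named genes outside the members, these alternatives were added after seeing the data.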

Additional observations from a re-analysis of the deposited data

Results flagged for a closer look

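Eed and Ring1 were picked out because the 3 clones and the R/R pool lay on opposite sides of the WT pool. Eed had a ratio of 0.29 in the R/R pool and -0.11, -0.16 and -0.43 in the clones. Ring1 had 0.035 in the R/R pool and -0.04, -0.12 and -0.0022 in the clones, beside a median SD of 0.078 to 0.093 between repeated spots on an array, which holds no variation between cultures or arrays. The difference between the pool and the clones was not tested, since the pool is 1 sample on the array with swapped dyes, and pool and dye cannot be told apart.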

How the results depend on the processing

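Members were called 0 times in either direction under the alternatives run on them, a threshold of 0.10 included and the deposited table left out, since its rows match no probe; the lowest adjusted p of a member was 0.130 and the largest ratio 0.45 in size, both of L3mbtl2. Of 161 pairs of a member probe and an alternative, 149 kept their direction and 12 reversed. Many of the 149 were fixed in advance: no filter, the strict filter, the brightest probe and the intensity trend cannot alter a probe's ratio. The mean of probes alters it only for genes with more than 1 tested probe. Probes called higher over the whole array numbered 49, against 8 with the scanner software's ratios, 3 with median centring, 31 with the strict filter, 30 with the brightest probe, 28 with the mean of probes, 632 with no dye term, 131 at 0.10, and 16 (without clone 1) to 123 (without clone 3) with a clone left out. Those called lower numbered 106, against 49, 29 and 57 with the first 3 of these, 66 with the mean of probes, 798 with no dye term, 248 at 0.10, and 61 (without clone 1) to 238 (without clone 3). Of the other Polycomb probes, 0 were called with the scanner software's ratios, median centring or without clone 1, and 2 with no dye term, against 1 in the reported fit. Eed changed sign, at -0.23 with the clones alone and -0.10 with no dye term. Ezh2 reached -0.00063 with the scanner software's ratios and -0.026 with clones 1 and 2 averaged, and ran from -0.036 to 0.10 with a clone left out. Pcgf6 had -0.027 with median centring and -0.023 with clones 1 and 2 averaged, and ran from -0.025 to 0.065 with a clone left out. Rnf2 was 0.0053 with the clones alone, against -0.20 in the reported fit, and Ring1 ran from -0.024 to 0.0064 with a clone left out. Nkx2-2 was 0.0029 with median centring, 0.0071 with the clones alone and 0.00021 with clones 1 and 2 averaged, and ran from -0.035 to 0.0072 with a clone left out. Gata6 was 0.00029 with clones 1 and 2 averaged; with a clone left out it ran from -0.036 to 0.0090, L3mbtl3 from -0.035 to 0.023, and Taf7l from -0.18 to 0.0075. With the scanner software's ratios Gata6 moved to -0.54 and Nkx2-2 to -0.21, neither called. The cause of these changes was not tested. R/R and WT RNA were paired within each array, since every ratio was taken on the same array. The labels give no further pairing of the clones with the R/R pool: they share fewer than 2 replicate numbers, and the WT pool carries none. Signal limits Cbx7, Ezh1 probe 3 and most silent targets, which have no measured level.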
